A study of Zea mays with 12 samples.

Results

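The genes sod4 and pco095461 encode superoxide dismutases of maize. They are 2 of the 37385 genes in the deposited tables, which describe 12 genes as superoxide dismutases, and were picked out by name. Both were chosen by their measured FPKM across the nutrient groups of these same libraries, so their levels and differences are given as a description, with no test. The study sequenced total RNA of maize roots (line DengHai605, plants 40 days old) as 12 libraries, 3 for each of 4 groups. The groups were potassium (K) deficiency, nitrogen (N) deficiency, phosphorus (P) deficiency and a control supplied with normal N, P and K. No source used here states the amounts supplied or the start of each deficiency. The libraries of each group carry the labels 1_3, 4_6 and 7_9, which nothing ties to separate plants, so p-values measure only the spread between these libraries.

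Superoxide dismutases convert superoxide, a reactive by-product of respiration, photosynthesis and oxidase activity, into oxygen and hydrogen peroxide, which catalases and peroxidases then remove. Plants hold copper-zinc forms in the cytosol, chloroplasts and other compartments, manganese forms in mitochondria and iron forms in chloroplasts. Copper-zinc forms need copper delivered by a dedicated chaperone. In Arabidopsis, copper shortage lowers their transcripts through a microRNA.

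The deposited annotation describes sod4 (gene 542722) as superoxide dismutase 4 and places its product in the cytoplasm. It describes pco095461 (gene 100136885) as superoxide dismutase, with copper and zinc binding and with the chloroplast stroma, thylakoid, apoplast and cytoplasm as locations. Gene silencing by miRNA is among the 16 annotation terms of pco095461. It is absent from the 3 terms of sod4, which are cytoplasm, metal ion binding and superoxide dismutase activity. Both genes are assigned to the peroxisome pathway. The RefSeq table lists sod4ap and SODCC.2 as synonyms of sod4, and sod-1a, sod-1b and sodC as synonyms of pco095461.

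Reads recovered from the deposited group means numbered 17236988 to 18389168 per library in K deficiency, 17301225 to 17959060 in N deficiency, 15791781 to 17244612 in P deficiency and 17843853 to 18465979 in the control. Libraries of 1 group correlated at 0.959 to 0.98 across genes, and libraries of different groups at 0.873 to 0.958. The K-deficiency library 7_9 stood apart in that 26011 genes had a value above 0, against 26928 to 27336 in the other 11 libraries. Without it 1321 genes in place of 2120 passed against the control in K deficiency. That drop was not particular to 7_9, since 1206 passed without K-deficient 1_3 and 987 without control 1_3. Named calls in K deficiency that were lost without library 7_9 are marked as such. The root genes rth3 and NAR2.1 had levels of 50.7 to 108 and 81.7 to 341 FPKM (fragments scaled to transcript length and library size), the root marker zrp4 had 4.997 to 45.5 FPKM, and rtcs1 had 0 to 1.26 FPKM. The 4 root markers summed to 217 to 258 FPKM in K deficiency, 380.5 to 432 in N deficiency, 152 to 248 in P deficiency and 194 to 220.3 in the control. NAR2.1, described as a high affinity nitrate transporter, reached the highest level of the 4, so the sum may not track root tissue alone. The part of these markers in any result was not tested. The 5 leaf markers summed to at most 12.55 FPKM in any library. Of these, pep1 was at 0 to 0.201 FPKM and lhcb3 at 0 to 2.76 FPKM. Higher levels were reached by ssu1 (0.589 to 5.07 FPKM), pdk1 (0.205 to 5.63 FPKM) and me3 (4.08 to 9.75 FPKM).

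sod4 was the most highly expressed superoxide dismutase gene of the control roots and was lowest in nitrogen-deficient roots. Its level was 121, 125.5 and 140.2 FPKM in K deficiency, 71.8, 74.35 and 79.3 FPKM in N deficiency, 128, 159 and 119 FPKM in P deficiency and 166.5, 178 and 169 FPKM in the control. All 9 deficient libraries lay below the 3 control libraries, and the 3 N-deficient libraries lay below all others. The means were 129 ± 10.1, 75.2 ± 3.81 and 135 ± 20.7 FPKM in K, N and P deficiency and 171 ± 5.95 FPKM in the control (SD, n = 3 each). Mean FPKM over that of the control was 0.753, 0.439 and 0.791 in K, N and P deficiency, so that sod4 was 2.28-fold lower in nitrogen-deficient roots. On the log2(FPKM + 1) scale the difference from the control was -0.41, -1.18 and -0.35 in K, N and P deficiency, each with a standard error of 0.131. In bulk roots, fewer cells of a type and less RNA per cell cannot be told apart.

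pco095461 was lower in nitrogen-deficient roots by about the same factor, while its levels in the other deficiencies overlapped the control. It had 85.2, 81.85 and 76.8 FPKM in K deficiency, 45.8, 42.4 and 39.8 FPKM in N deficiency, 92.2, 78.15 and 79.0 FPKM in P deficiency and 94.7, 84.99 and 98.8 FPKM in the control. The N-deficient libraries were the 3 lowest of the 12, and the K- and P-deficient libraries each reached into the control range. The means were 81.3 ± 4.25, 42.6 ± 3.002 and 83.1 ± 7.91 FPKM in K, N and P deficiency and 92.8 ± 7.09 FPKM in the control (SD, n = 3 each). Over the control mean these gave 0.876, 0.459 and 0.896 in K, N and P deficiency, and the gene was 2.18-fold lower in nitrogen-deficient roots. The log2 difference was -0.19, -1.10 and -0.16 in K, N and P deficiency, each with a standard error of 0.117.

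**Figure D1:**
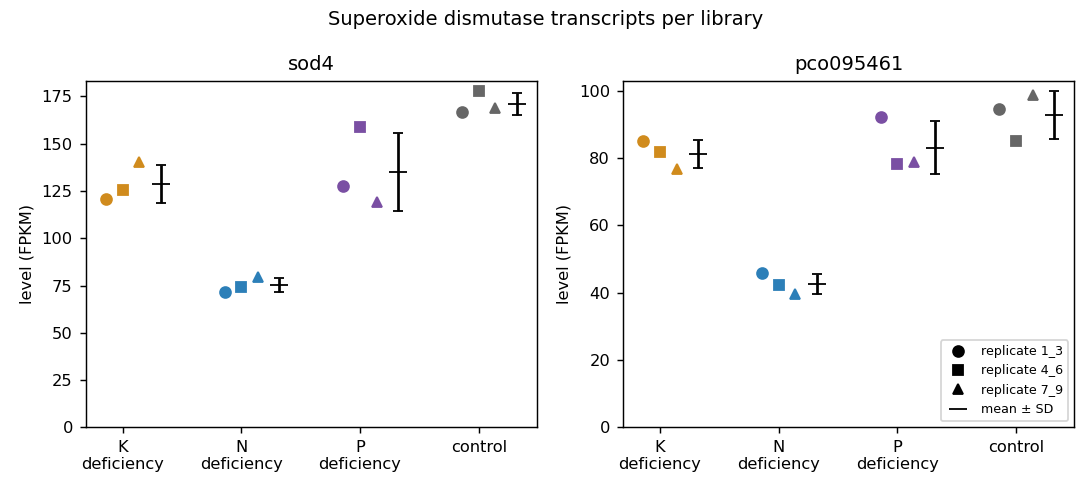
Level of sod4 and of pco095461 in FPKM (vertical axis, from 0) in each library of K deficiency, N deficiency, P deficiency and the control; symbols are libraries by replicate label, and the black marks beside them are the mean and SD (n = 3 each). The N-deficient libraries sit at 71.8 to 79.3 FPKM for sod4 and 39.8 to 45.8 FPKM for pco095461, below every library of the other groups.

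The order of the group means was control, P deficiency, K deficiency and N deficiency for both genes. For sod4 the P- and K-deficient libraries overlapped, and the other neighbours in that order were separate. For pco095461 only N deficiency was separate from its neighbour. Set directly against the other deficiencies, N deficiency had a ratio of mean FPKM of 0.583 to K deficiency and 0.556 to P deficiency for sod4, and of 0.525 and 0.513 for pco095461. The contrasts with the control share the same 3 control libraries.

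Both genes, 2 of 2, lay wholly below the control in N deficiency, where 16.5% of the 24311 tested genes did. In K deficiency 1 of 2 did, with a background of 11.1%, and in P deficiency 1 of 2 did, with a background of 18.0%. In all 3 deficiencies at once sod4 lay below the control, as did 5.55% of tested genes. Both lay wholly below K deficiency in N deficiency, where 17.1% of genes did, and wholly below P deficiency, where 17.5% did. Since these contrasts chose the genes, nothing is read from the counts. Of the tested genes, 3.8% had a lower log2 difference than sod4 in N deficiency and 4.2% a lower one than pco095461. In K deficiency the shares were 10.4% for sod4 and 21.7% for pco095461, and in P deficiency 17.9% and 29.9%.

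The recovered reads gave the same picture for nitrogen and a less clear one for phosphorus. sod4 had 3417, 3197 and 3298 reads in K deficiency, 2045, 2047 and 2191 in N deficiency, 3151, 4071 and 2787 in P deficiency and 4378, 4765 and 4675 in the control. As RPM, recovered reads scaled to the depth of the library, this made 186, 183 and 191 in K deficiency, 114, 117 and 127 in N deficiency, 183, 244.4 and 176.5 in P deficiency and 243.2, 267 and 253 in the control. On this scale the P-deficient library 4_6 reached above the lowest control library, whereas by FPKM the groups were separate.

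pco095461 had 1775, 1775 and 1616 reads in K deficiency, 1065, 910 and 849 in N deficiency, 1821, 1538 and 1515 in P deficiency and 2007, 1725 and 2234 in the control. As RPM this made 96.5, 102 and 93.75 in K deficiency, 59.3, 52.0 and 49.1 in N deficiency, 106, 92.3 and 95.9 in P deficiency and 111.5, 96.7 and 121 in the control. Again only N deficiency was separate from the control. In the authors' deposited table the fold to the control for sod4 was 0.697, 0.464 and 0.765 in K, N and P deficiency. For pco095461 the authors' deposited table gave 0.847, 0.483 and 0.868.

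The pair's proportion to each other varied within groups about as much as between them. The ratio of sod4 to pco095461 in FPKM, a level per length, was 1.59 ± 0.210 in K deficiency, 1.77 ± 0.213 in N deficiency, 1.64 ± 0.341 in P deficiency and 1.85 ± 0.208 in the control (SD, n = 3 each). The ranges of this ratio overlapped between N deficiency and each of the other groups. Across the 12 libraries, which include the group differences that chose the genes, the log2 levels of the pair correlated at r = 0.908.

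Another copper-zinc gene, LOC103639134, described as superoxide dismutase [Cu-Zn] 4AP, did not share the low level in nitrogen deficiency. It had 91.9, 109 and 132 FPKM in K deficiency, 124.6, 159 and 146.5 FPKM in N deficiency, 219, 228.5 and 176 FPKM in P deficiency and 102, 99.9 and 142 FPKM in the control. The P-deficient libraries lay above all control libraries, and the other 2 deficiencies overlapped the control. The 4AP gene rose in P deficiency to 208 ± 27.95 FPKM, against 115 ± 23.8 FPKM in the control, a ratio of 1.81 and a log2 difference of 0.86 ± 0.189 (SE; limma, adjusted p = 0.00935). It averaged 143 ± 17.4 FPKM in N deficiency, a ratio of 1.25 (adjusted p = 0.257), and 111 ± 20.1 FPKM in K deficiency, a ratio of 0.966 (adjusted p = 0.914). Its correlation with sod4 across the 12 libraries was -0.102.

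The 4AP gene and sod4 carry related names, and RefSeq gives sod4ap as a synonym of sod4. If the transcripts are close copies, how the authors' counting divided reads between them is uncertain, and no sequence was at hand to compare them. The 4AP gene had 0.760 to 0.940 times the FPKM of sod4 in K deficiency, 1.74 to 2.14 times in N deficiency, 1.44 to 1.72 times in P deficiency and 0.562 to 0.842 times in the control. The share of sod4 in the reads of both genes together was 48.3 ± 2.78% in K deficiency, 30.7 ± 2.52% in N deficiency, 34.1 ± 2.04% in P deficiency and 54.3 ± 4.84% in the control (SD, n = 3 each). The N- and P-deficient libraries all lay below the control libraries in this share, and the K-deficient libraries overlapped them.

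Added together, sod4 and the 4AP gene had 361, 389 and 413 RPM in K deficiency, 345.5, 418 and 407 in N deficiency, 572, 679 and 513 in P deficiency and 435, 459.8 and 518.5 in the control. The sum averaged 387.5 ± 26.0, 390.2 ± 39.2 and 588 ± 84.3 RPM in K, N and P deficiency and 471 ± 43.0 RPM in the control (SD, n = 3 each). In RPM it lay below the control in every K- and N-deficient library, and the P-deficient libraries overlapped the control. In FPKM the sum spanned 213 to 272 in the K-deficient libraries, 196.5 to 233 in the N-deficient, 295.5 to 387 in the P-deficient and 269 to 311 in the control, so that on this scale only the N-deficient libraries were separate from the control. How assigned reads were divided between these genes leaves the sum in RPM as it is. It can change the sum in FPKM, where each gene is scaled to its own length.

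**Figure D2:**
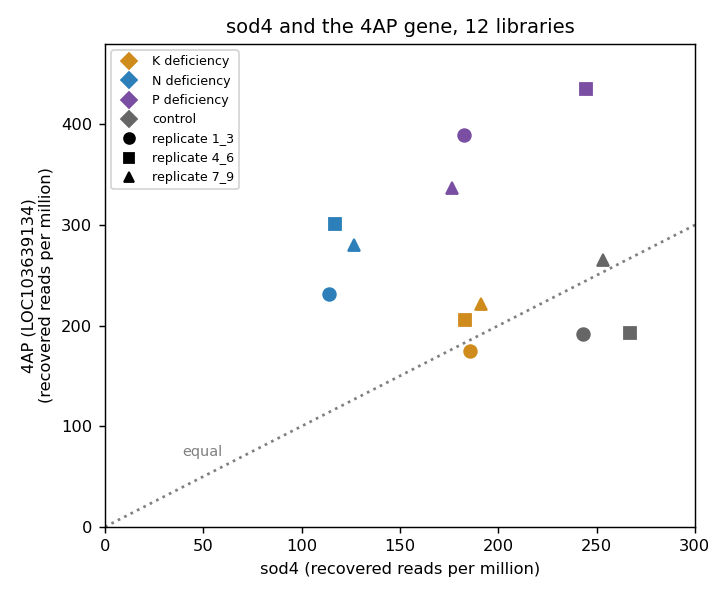
RPM of the 4AP gene LOC103639134 (vertical axis) against RPM of sod4 (horizontal axis) in each of the 12 libraries, coloured by group and shaped by replicate label, with a dotted line where both are equal. All N- and P-deficient libraries lie above the line, with 232 to 435 RPM of the 4AP gene, while the K-deficient libraries (175 to 222 RPM) and control libraries (191 to 265 RPM) lie on both sides of it.

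sod4 and pco095461 made up a smaller share of the superoxide dismutase transcripts in nitrogen-deficient roots. The 12 genes of the family summed to 548 ± 12.8 FPKM in K deficiency, 466 ± 18.3 FPKM in N deficiency, 687.5 ± 56.7 FPKM in P deficiency and 633 ± 38.5 FPKM in the control (SD, n = 3 each). Both genes together held 38.4 ± 0.226% of that sum in K deficiency, 25.3 ± 1.15% in N deficiency, 31.8 ± 1.10% in P deficiency and 41.8 ± 1.95% in the control. sod4 ranked first in the family in K deficiency and in the control, and the 4AP gene ranked first in N and P deficiency with 30.7 ± 2.77% and 30.2 ± 1.69% of the sum, against 18.0 ± 2.58% in the control. pco095461 ranked 4 in K deficiency, 6 in N deficiency, 4 in P deficiency and 3 in the control.

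**Figure D3:**
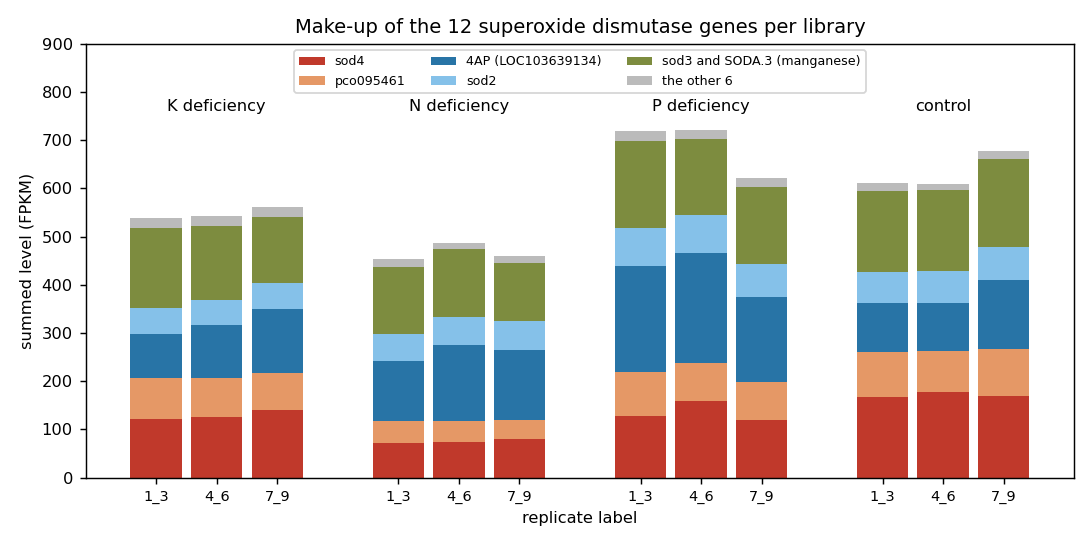
Summed FPKM of the 12 superoxide dismutase genes (vertical axis, from 0) in each library of K deficiency, N deficiency, P deficiency and the control, stacked by gene, with sod3 joined to SODA.3 and the other 6 genes joined. The lowest segments, sod4 and pco095461, hold on average 25.3% of the stack in N deficiency, against 41.8% in the control.

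Of the 10 other family members, 8 reached the expression minimum and were tested, and LOC100193589 and LOC100384855 did not. In K deficiency 1 of the 8 passed, by a rise, where 8.72% of all tested genes passed, 4.83% higher and 3.89% lower. In N deficiency 1 of the 8 passed, by a fall, where 19.0% of all tested genes passed, 9.63% higher and 9.33% lower. In P deficiency 3 of the 8 passed, all by a rise, where 23.4% of all tested genes passed, 13.0% higher and 10.4% lower. The median log2 difference of the 8 was -0.04, -0.14 and 0.21 in K, N and P deficiency, beside 0.07, 0.04 and 0.08 over all tested genes.

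Among the mitochondrial manganese forms, SODA.3 (superoxide dismutase [Mn] 3.4) fell in N deficiency to 59.9 ± 2.87 FPKM, against 87.0 ± 1.03 FPKM in the control, a ratio of 0.689 (limma, adjusted p = 0.0222). This call was lost without any 1 of the N-deficient libraries, without the control library 1_3 and in the authors' deposited table. SODA.3 averaged 67.5 ± 9.05 FPKM in K deficiency (adjusted p = 0.138) and 71.35 ± 11.9 FPKM in P deficiency (adjusted p = 0.148). The gene sod3 averaged 84.7 ± 6.83, 73.7 ± 7.56 and 94.1 ± 2.19 FPKM in K, N and P deficiency and 86.9 ± 7.645 FPKM in the control, with adjusted p of 0.896, 0.211 and 0.511.

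The gene sod2, described as superoxide dismutase 2, averaged 53.5 ± 1.78, 57.65 ± 1.48 and 75.5 ± 6.08 FPKM in K, N and P deficiency and 65.7 ± 2.985 FPKM in the control, and passed in none of the 3 contrasts (adjusted p = 0.114, 0.248 and 0.188). LOC100282741 has the same description at a lower level. It rose in K deficiency to 11.3 ± 1.30 FPKM, against 5.97 ± 0.381 FPKM in the control, a ratio of 1.89 (adjusted p = 0.00242). It also rose in P deficiency to 8.72 ± 0.829 FPKM, a ratio of 1.46 (adjusted p = 0.0198). That call was lost without P-deficient 4_6 or 7_9, without control 1_3 or 4_6, in a fit of the 6 compared libraries and in the authors' deposited table.

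LOC100274012, a further gene described as superoxide dismutase, rose in P deficiency to 4.51 ± 0.652 FPKM, against 1.72 ± 0.275 FPKM in the control, a ratio of 2.62 (adjusted p = 0.000742). The chloroplast iron forms were at low levels. sodB averaged 4.16 ± 0.477, 2.96 ± 0.914 and 4.02 ± 1.41 FPKM in K, N and P deficiency and 3.20 ± 0.455 FPKM in the control. LOC103626390 averaged 2.90 ± 0.125, 1.90 ± 0.872 and 2.62 ± 0.509 FPKM in K, N and P deficiency and 3.54 ± 0.883 FPKM in the control, with an adjusted p of 0.0552 in N deficiency.

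**Figure D4:**
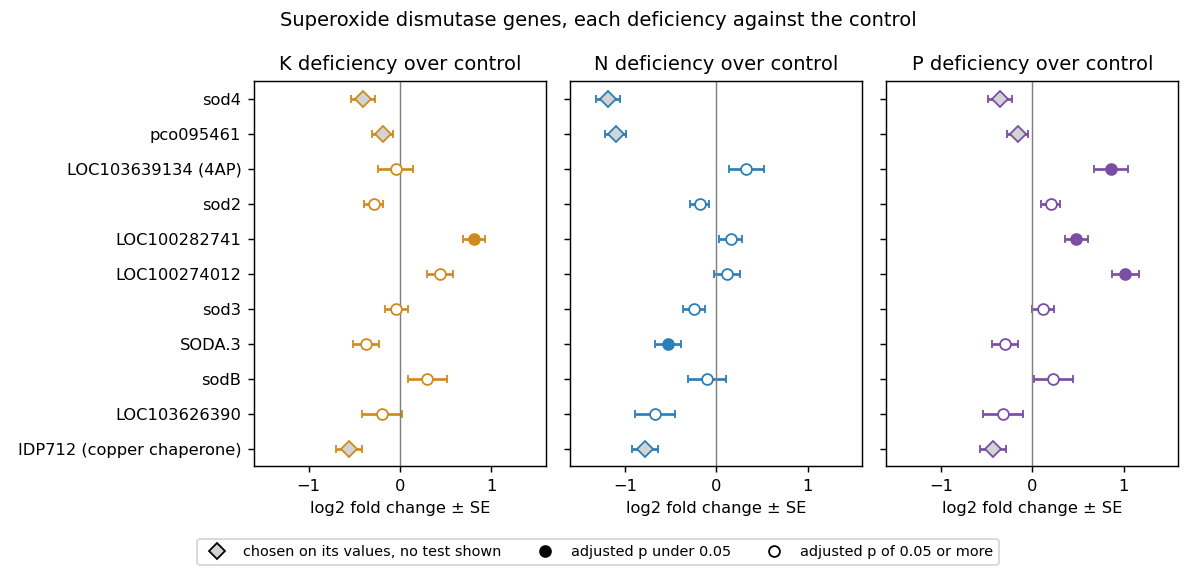
Log2 difference from the control on the log2(FPKM + 1) scale (horizontal axis) with its standard error for sod4, pco095461 and the 8 other tested superoxide dismutase genes, and for the chaperone gene IDP712 described further on, in K, N and P deficiency; filled circles passed the threshold of 0.05 on the adjusted p, open circles did not, and diamonds are genes chosen on their values, shown with no test. In N deficiency sod4 at -1.18 and pco095461 at -1.10 lie lowest, with IDP712 at -0.78 and LOC103626390 at -0.67 next.

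Tested directly between deficiencies, 1 to 3 of the 8 tested members other than sod4 and pco095461 passed in each contrast. In N deficiency against K deficiency 1 of 8 passed, LOC100282741, with 6.80 ± 0.690 FPKM against 11.3 ± 1.30 FPKM (adjusted p = 0.00747), where 5.93% of all tested genes were called lower. In N deficiency against P deficiency 2 of 8 were lower, with a background of 5.47%. These were LOC100274012, with 1.96 ± 0.376 against 4.51 ± 0.652 FPKM (adjusted p = 0.0034), and sod2, with 57.65 ± 1.48 against 75.5 ± 6.08 FPKM (adjusted p = 0.0394). The call of sod2 was lost without any 1 of these 6 libraries, in the fit of these 6 alone and with other scalings.

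In P deficiency against K deficiency 3 of 8 were higher, with a background of 2.95%. The 4AP gene had 208 ± 27.95 FPKM in P deficiency against 111 ± 20.1 FPKM in K deficiency (adjusted p = 0.0153), sod2 had 75.5 ± 6.08 against 53.5 ± 1.78 FPKM (adjusted p = 0.0165), and LOC100274012 had 4.51 ± 0.652 against 2.69 ± 0.265 FPKM (adjusted p = 0.0318). Leaving out single libraries ended calls of these genes, and in the fit of these 6 libraries alone the 4AP gene passed and the others did not. The 4AP gene and sod2 lost theirs without K-deficient 1_3 or P-deficient 1_3, sod2 also without K-deficient 4_6, and LOC100274012 without any of the K-deficient libraries or without P-deficient 1_3 or 7_9.

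One gene annotated with superoxide dismutase copper chaperone activity had its lowest mean in nitrogen deficiency. IDP712 (gene 100283786), which the deposited table leaves otherwise uncharacterized, was picked once its values had been seen. It had 29.1, 25.9 and 33.5 FPKM in K deficiency, 24.0, 21.9 and 29.95 FPKM in N deficiency, 33.0, 29.7 and 34.3 FPKM in P deficiency and 46.9, 45.5 and 39.4 FPKM in the control. All 9 deficient libraries lay below the control libraries, as they did for 5.55% of all tested genes. The means were 29.5 ± 3.83, 25.3 ± 4.18 and 32.3 ± 2.40 FPKM in K, N and P deficiency and 43.9 ± 3.97 FPKM in the control (SD, n = 3 each), ratios of 0.672, 0.576 and 0.736, given as a description with no test. The 3 further genes listed only by an annotation term for superoxide dismutase or its copper chaperone, LOC103640161, LOC103641949 and LOC103642449, had at most 0.483 FPKM in any library. The correlation of IDP712 across the 12 libraries was 0.798 with sod4 and 0.671 with pco095461.

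Genes that remove hydrogen peroxide, the product of superoxide dismutases, included a glutathione peroxidase that fell in all 3 deficiencies. Of 16 tested catalases, ascorbate peroxidases, glutathione peroxidases and peroxiredoxins, 2 fell in K deficiency, where 3.89% of all tested genes fell, 1 rose and 3 fell in N deficiency, where 9.63% rose and 9.33% fell, and 4 rose and 1 fell in P deficiency, where 13.0% rose and 10.4% fell. The median log2 difference of the 16 was 0.08, -0.19 and 0.05 in K, N and P deficiency, beside the all-gene medians of 0.07, 0.04 and 0.08. The glutathione peroxidase LOC100272844 fell to 5.57 ± 1.03, 4.92 ± 1.33 and 4.14 ± 0.994 FPKM in K, N and P deficiency, against 13.5 ± 1.22 FPKM in the control (adjusted p = 0.00484, 0.000917 and 0.000488). The catalase gene cat2 fell in N deficiency to 2.29 ± 0.997 FPKM, against 9.05 ± 1.16 FPKM in the control, 3.96-fold lower (adjusted p = 0.00481). The more highly expressed catalase gene cat1 had 68.8 ± 5.84 FPKM there, against 88.3 ± 5.35 FPKM (limma, adjusted p = 0.12). The other calls in N deficiency were a fall of LOC100194161 and the 1 rise, of the ascorbate peroxidase apx2. Its level was 330 ± 43.0 FPKM, against 203 ± 21.9 FPKM in the control (limma, adjusted p = 0.00759). A further glutathione peroxidase, pco114914, fell in K deficiency to 51.7 ± 5.46 FPKM, against 72.1 ± 7.68 FPKM in the control (adjusted p = 0.0384), a call lost without K-deficient 1_3 or 7_9 or control 1_3 or 4_6 and in the fit of 6 libraries. The peroxiredoxin LOC100282595 rose in P deficiency to 29.8 ± 1.53 FPKM, against 17.0 ± 2.29 FPKM in the control (adjusted p = 0.00218).

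Among 11 tested genes of ascorbate and glutathione recycling and synthesis, 1 rose in K deficiency, 2 rose and 1 fell in N deficiency, and 1 rose and 3 fell in P deficiency, beside 8.72%, 19.0% and 23.4% of all tested genes called in K, N and P deficiency. The medians of these 11 were 0.11, -0.20 and -0.15, beside 0.07, 0.04 and 0.08 over all tested genes. The glutamate-cysteine ligase LOC100381846, which makes the precursor of glutathione, rose to 49.45 ± 4.09, 61.9 ± 0.530 and 48.6 ± 2.01 FPKM in K, N and P deficiency, against 29.0 ± 0.524 FPKM in the control (adjusted p = 0.00102, 2.97e-05 and 0.000621). The peroxisomal monodehydroascorbate reductase gpm592 rose in N deficiency to 275.5 ± 73.8 FPKM, against 152 ± 14.95 FPKM in the control (adjusted p = 0.00793), a call not made in the authors' deposited table.

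The superoxide-producing oxidases of the plasma membrane did not pass in any contrast with the control in the limma fit of 12 libraries. Of the 3 genes rbohC, rbohD and IDP491, 0 had an unadjusted p under 0.05 in that fit in any contrast with the control, and 0 were called by voom or by the authors' deposited table. Without control 4_6, limma called rbohC higher in N deficiency (log2 difference 0.94, adjusted p = 0.0141). Without P-deficient 4_6, it called IDP491 lower in P deficiency (log2 difference -0.68, adjusted p = 0.045). The level of rbohD was 234 ± 101, 349 ± 148 and 266 ± 77.9 FPKM in K, N and P deficiency and 268 ± 157 FPKM in the control. Between deficiencies, IDP491 was lower in P deficiency, with 5.71 ± 1.997 FPKM, than in K deficiency, with 10.5 ± 1.23 FPKM (adjusted p = 0.046). That call was lost without any 1 of the K-deficient libraries, without P-deficient 1_3 or 7_9, with no expression minimum and in the fit of these 6 libraries alone.

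Copper genes were listed since pco095461 is annotated as binding copper. Of 8 tested copper transporters and chaperones, 2 rose in K deficiency, where 4.83% of all tested genes rose, and 1 rose in P deficiency, where 13.0% rose. The medians were 0.20, 0.33 and 0.23 in K, N and P deficiency, beside 0.07, 0.04 and 0.08 over all tested genes. In N deficiency limma called 0 of the 8, with 3 at an unadjusted p under 0.05, 2 called by voom and 1 by the authors' deposited table. The copper transporter LOC100274413 rose in K deficiency to 18.0 ± 0.840 FPKM, against 6.73 ± 1.23 FPKM in the control (adjusted p = 0.00414), and had 6.66 ± 2.44 FPKM in N deficiency. Several genes are described as PAA1, a copper pump of the chloroplast envelope. Of these, pco118593 rose in K deficiency to 7.88 ± 1.19 FPKM, against 4.70 ± 0.170 FPKM in the control (adjusted p = 0.0166), and had 6.54 ± 0.880 FPKM in N deficiency (adjusted p = 0.0658). Its K-deficiency call was lost without K-deficient 1_3 or 4_6 or control 1_3 or 4_6. The other PAA1 genes had lower means in K deficiency than in the control and did not pass. LOC100304350 had 0.532 ± 0.191 against 1.06 ± 0.260 FPKM (adjusted p = 0.151), and LOC100284630 had 0.939 ± 0.347 against 1.20 ± 0.364 FPKM (adjusted p = 0.672). The copper chaperone LOC100283516 rose in P deficiency to 13.1 ± 4.43 FPKM, against 3.85 ± 3.29 FPKM in the control (adjusted p = 0.0151), a call lost without P-deficient 7_9 or control 1_3 and in the fit of 6 libraries.

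Copper proteins were listed by words in the gene descriptions, which also caught LOC100281020, a plastoquinol-plastocyanin reductase. Of the 28 tested genes, 4 rose and 1 fell in K deficiency, 4 rose and 1 fell in N deficiency. In P deficiency 4 rose and 2 fell. Of all tested genes 8.72%, 19.0% and 23.4% passed in K, N and P deficiency, so the N and P counts are near the background. The medians were 0.33, 0.59 and 0.27, beside 0.07, 0.04 and 0.08 over all tested genes. The gene described as Laccase-7, an oxidase of the cell wall, fell to 58.3 ± 5.41, 31.4 ± 5.37 and 29.3 ± 0.515 FPKM in K, N and P deficiency, against 132 ± 27.2 FPKM in the control (adjusted p = 0.00145, 1.06e-05 and 1.45e-05). The primary amine oxidase LOC100279491 rose in N deficiency to 3.35 ± 0.636 FPKM and in P deficiency to 3.645 ± 0.446 FPKM, against 1.44 ± 0.187 FPKM in the control (adjusted p = 0.00148 and 0.000908). In K deficiency it had 2.56 ± 0.0346 FPKM (adjusted p = 0.0293), a call lost without any of the K-deficient libraries or control 1_3 or 4_6, with a pseudocount of 10, in the fit of 6 libraries, with the replicate block, with voom and in the authors' deposited table. The laccase LOC100193025 rose in K deficiency to 89.0 ± 15.2 FPKM, against 37.5 ± 8.61 FPKM in the control (adjusted p = 0.0153), a call lost without K-deficient 1_3 or control 1_3 or 4_6.

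Metal-binding and storage genes included the lowest medians among these lists in N and P deficiency. Of 13 tested metallothioneins, ferritins and nicotianamine synthases, 4 fell in K deficiency, 5 fell in N deficiency, and 4 rose and 5 fell in P deficiency. Of all tested genes 3.89% fell in K deficiency, 9.33% fell in N deficiency, and 13.0% rose and 10.4% fell in P deficiency. The medians were -0.01, -0.68 and -0.81, beside 0.07, 0.04 and 0.08 over all tested genes. Ferritin gene fer1, whose protein stores iron, fell to 68.0 ± 7.88, 51.2 ± 10.3 and 62.4 ± 5.68 FPKM in K, N and P deficiency, against 198 ± 28.4 FPKM in the control (adjusted p = 0.000328, 1.9e-05 and 8.04e-05). The metallothionein gene LOC103649798 fell to 1.805 ± 1.08, 0.288 ± 0.333 and 0.549 ± 0.458 FPKM in K, N and P deficiency, against 16.1 ± 3.31 FPKM in the control (adjusted p = 0.000415, 1.32e-05 and 2.69e-05). Metallothioneins went both ways in P deficiency. The 4 rises were of the metallothioneins LOC100280917, LOC100284159 and LOC100280901 and of the nicotianamine synthase LOC100284978. The 5 falls were of fer1, fer2 and the metallothioneins mtl1, mtl2 and LOC103649798.

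Together the 6 lists held 79 tested genes, of which 14, 17 and 25 passed in K, N and P deficiency, beside 8.72%, 19.0% and 23.4% of all tested genes. The count in K deficiency was 8 without K-deficient 1_3, 9 without K-deficient 7_9, 7 without control 1_3 and 8 without control 4_6, and that in P deficiency was 15 without control 1_3. The calls of pco114914 and pco118593 in K deficiency and of LOC100283516 in P deficiency were not made in the authors' deposited table.

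The genes whose levels ran most like those of sod4 and pco095461 were found by the Pearson correlation of log2(FPKM + 1) over the 12 libraries, which share the group differences. For sod4 these were LOC100191538 (r = 0.961), IDP64 (0.951), cl15732_1 (0.948), IDP708 (0.946) and LOC100274379 (0.944), and pco095461 ranked 52. For pco095461 these were LOC100272946 (0.966), IDP64 (0.966), LOC103642089 (0.963), LOC103647820 (0.958) and LOC100501893 (0.956), and sod4 ranked 64. IDP64, described as Protein NLP6, stood in both lists. Proteins of the NLP family act in nitrate signalling in Arabidopsis. IDP64 averaged 16.6 ± 2.95 FPKM in K deficiency, 0.929 ± 0.255 in N deficiency, 17.6 ± 0.310 in P deficiency and 24.6 ± 2.96 in the control. The purple acid phosphatase LOC100272946 averaged 56.2 FPKM in K deficiency, 2.59 in N deficiency, 69.85 in P deficiency and 70.1 in the control.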

How the data were processed

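The per-library values are FPKM computed by the authors, per the file headers; the 3 deposited tables hold the same control columns. The deposited group means are a signal, normalized counts averaged by the authors over 3 libraries. The authors' fold change, also deposited, is a ratio (deficient over control mean), and its log2 and adjusted p-value are the authors' own. Aligner, counting tool and genome build: not given in the sources used here. No per-library column was left unmatched (0 columns).

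Genes with at least 0.5 FPKM in at least 3 of 12 libraries (24311) were fitted on log2(FPKM + 1) with limma 3.58.1 (intensity trend) in R 4.3.3, in 1 fit of 12 libraries with group as its only term. P-values were adjusted by the Benjamini-Hochberg method over all tested genes, with a threshold of 0.05; folds are ratios of mean FPKM. From the deposited group means the whole reads of each library were recovered (99.99 to 100% of genes) for depth, RPM and a voom alternative. The planned trimmed-mean scaling was computed on FPKM, the deposited unit. Correlations are descriptions. The fits were tested on simulated data. Sums and plots were made in Python 3.11.15 with pandas 2.3.3, numpy 2.4.6 and matplotlib 3.10.9. RefSeq's table (Zm-B73-REFERENCE-NAM-5.0) held 87.4% of the identifiers and was used for synonyms only.

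The 2 genes and the gene lists were chosen with earlier results of these data known. Family members were taken by description, and in each pathway list the rule named the 2 genes with the smallest p per contrast with the control, of which the text gives most, plus the 5 genes most correlated with each of sod4 and pco095461. IDP712 lay outside that rule and is given with no test. IDP491 in P against K deficiency was added after its values were seen. So were cat1, apx2 and LOC100194161 in N deficiency and the other called metal-binding genes in P deficiency. These were not followed singly through the alternatives. Alternatives were other scalings, pseudocounts, expression minimums, a fit of the 6 compared libraries, a replicate block, voom, the authors' deposited table, and leaving out each library in turn. Sequences and promoters were not used here.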

Additional observations from a re-analysis of the deposited data

How the results depend on the processing

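The log2 differences of sod4 and pco095461 from the control kept their sign in all 72 combinations of gene, contrast and alternative setting, and 8 moved by more than the spread between replicates. For sod4 in K deficiency, -0.41 became -0.50 with median-ratio scaling, -0.52 with the trimmed mean and -0.52 in the authors' deposited table, and leaving out 1 library gave -0.47 to -0.36. For pco095461 in K deficiency, -0.19 became -0.30 with the trimmed mean (-0.25 to -0.14 leaving out 1 library). In N deficiency sod4 at -1.18 became -1.09 with a pseudocount of 10, -1.09 with voom and -1.11 in the authors' deposited table (-1.22 to -1.14), and pco095461 at -1.10 became -0.97 with a pseudocount of 10 (-1.17 to -1.06). In P deficiency the ranges were -0.47 to -0.26 and -0.23 to -0.11. No scaling moved the median of all genes by more than 0.08 on the log2 scale. The cause of these moves was not tested.

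The count of other superoxide dismutases that passed was 1 in K deficiency (2 with the trimmed mean and with voom), 1 in N deficiency (2 with median-ratio scaling, the trimmed mean and the replicate block, 0 in the authors' deposited table, 0 to 2 leaving out 1 library) and 3 in P deficiency (2 to 3). In N against P deficiency 2 became 1 with median-ratio scaling, the trimmed mean, the fit of 6 libraries and the replicate block, and 1 leaving out any library; in P against K deficiency 3 became 1 in the fit of 6 libraries and 0 to 3 leaving out 1. The pathway lists gave 14 calls in K deficiency (7 to 15), 17 in N deficiency (14 to 21) and 25 in P deficiency (15 to 22). Over all genes the calls numbered 2120 in K deficiency (987 to 2329), 4609 in N deficiency (2765 to 4411) and 5691 in P deficiency (2397 to 6306), with 3304 in the fit of 6 libraries and 3249 in the authors' deposited table for P. Over all pairs of a named gene's contrast and a setting, calls were kept in 541 and lost in 76, and contrasts without a call gained one in 16 and stayed without one in 1068. With fewer libraries the fits have fewer replicates.

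Like-numbered libraries were not treated as pairs. With the group mean of each gene subtracted, 10 of 18 like-numbered pairs correlated above 0.1 (range -0.39 to 0.33). These correlations of a library with the libraries of the other groups were averaged by label. The label with the highest average was the library's own in 3 of 12 cases. The replicate block gave 13, 21 and 21 list calls in K, N and P deficiency.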
